A study of Mus musculus with 18 samples.

Results

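The 37 genes described here are the enzymes of glycolysis and the genes around hypoxia-inducible factor (HIF), taken as a named list from a table of 30452 genes. Of the 37 genes, 32 reached 1 FPKM (fragments per transcript length and sequencing depth) in at least 3 libraries and were tested among 11936 tested genes. The 5 untested genes were Slc2a3, Aldoc, Slc16a3, Adm and Epas1. The RNA, selected by its poly(A) tail, came from the mouse pre-osteoblast line MC3T3-E1, seeded at 20000 cells per well and kept for 5 days on discs of 15 mm. The discs were cut from nanofibre membranes of PLLA (a polylactide), PLLA with zinc oxide (PLLA/ZnO), or PLLA/ZnO with a further component labelled Col and read here as collagen (PLLA/ZnO@Col). Each membrane was used without ultrasound (-US) or with 10 min of daily ultrasound (+US). That made 6 groups with 3 libraries in each. All libraries came from this line, and the -US cells on PLLA had neither zinc oxide, collagen nor ultrasound. The labels describe PLLA/ZnO as part of a piezoelectric design, and no animal tissue was sampled. Nothing in the labels says that the 3 libraries of a group came from separate cultures, so the p-values measure only the spread between libraries, which may be technical.

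Glycolysis splits glucose into pyruvate in the cytosol, and lactate dehydrogenase turns pyruvate into lactate when the mitochondria do not take it up. HIF is a pair of proteins, an oxygen-labile alpha subunit (Hif1a or Epas1) and a stable partner. In normal oxygen the prolyl hydroxylases Egln1 and Egln3 mark the alpha subunit, and Vhl directs its destruction. In low oxygen HIF binds the short core ACGTG or GCGTG in DNA and raises transcription of glucose transporters, most glycolytic enzymes, Pdk1, Bnip3 and Car9. Osteoblasts are known for high glycolysis even when oxygen is present. HIF is regulated mainly at the level of its protein, which these libraries do not measure.

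The DNA upstream of the start sites was read for 33 of the 37 genes from the RefSeq promoter table on GRCm38.p6 (250 bases before to 50 bases after each start). Bnip3l, Slc2a3, Ndrg1 and Epas1 had no entry. Both strands were searched for ACGTG and GCGTG, and the palindrome CACGTG counts once on each strand. At least 1 match stood in 26 of the 33 promoters (78.8%), against 55.3% of the 15484 promoters of genes in the table. Among tested genes the shares were 23 of 30 (76.7%) for the list and 65.6% of 8537 for all. At least 2 matches stood in 56.7% of the tested list promoters and in 36.3% of all tested promoters. Median GC content was 64.5% and 61.3% in these same sets, and the part of base composition in the shares was not tested. The promoters below belong to the 3 genes with the smallest p for ultrasound on PLLA/ZnO (Pdk1, Bnip3, Ak4), to Car9, and to Pgk1 as an enzyme of glycolysis. They were chosen after the values were seen. Each is written 5′ to 3′ on the strand of its gene, with the matches in capitals.
Bnip3: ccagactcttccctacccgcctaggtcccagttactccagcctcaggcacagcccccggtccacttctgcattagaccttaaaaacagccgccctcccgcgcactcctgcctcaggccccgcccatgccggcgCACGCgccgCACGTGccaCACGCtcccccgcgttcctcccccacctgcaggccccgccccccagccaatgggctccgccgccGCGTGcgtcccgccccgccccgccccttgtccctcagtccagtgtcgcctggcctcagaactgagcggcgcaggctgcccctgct
Pdk1: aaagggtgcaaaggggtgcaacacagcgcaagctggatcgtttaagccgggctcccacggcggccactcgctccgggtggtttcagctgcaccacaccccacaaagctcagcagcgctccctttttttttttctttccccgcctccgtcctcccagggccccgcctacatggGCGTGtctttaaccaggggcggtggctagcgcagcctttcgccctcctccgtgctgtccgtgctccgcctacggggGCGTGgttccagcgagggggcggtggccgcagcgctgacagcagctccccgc
Ak4: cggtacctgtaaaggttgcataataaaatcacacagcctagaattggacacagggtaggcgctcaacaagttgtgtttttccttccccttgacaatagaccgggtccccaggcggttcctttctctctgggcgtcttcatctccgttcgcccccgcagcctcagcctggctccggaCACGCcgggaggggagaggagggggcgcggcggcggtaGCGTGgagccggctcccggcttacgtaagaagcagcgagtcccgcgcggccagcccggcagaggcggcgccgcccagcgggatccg
Car9: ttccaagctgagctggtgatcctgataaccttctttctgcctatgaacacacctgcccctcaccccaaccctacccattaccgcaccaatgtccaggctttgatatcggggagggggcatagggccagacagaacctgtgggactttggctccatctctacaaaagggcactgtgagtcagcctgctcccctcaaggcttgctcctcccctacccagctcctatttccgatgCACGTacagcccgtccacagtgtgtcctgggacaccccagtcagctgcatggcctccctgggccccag
Pgk1: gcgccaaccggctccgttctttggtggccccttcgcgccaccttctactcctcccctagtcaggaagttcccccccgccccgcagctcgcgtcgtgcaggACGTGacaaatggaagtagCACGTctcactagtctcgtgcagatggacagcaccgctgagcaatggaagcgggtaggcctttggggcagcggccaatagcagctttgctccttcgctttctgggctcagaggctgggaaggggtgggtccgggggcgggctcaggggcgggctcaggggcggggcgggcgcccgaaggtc
The Bnip3 promoter is at chr7:138909457-138909756 on the minus strand and holds 5 matches. The nearest was 35 bases before the start, and the 2 that overlap in the palindrome were 108 and 107 bases before it. The Pdk1 promoter (chr2:71872974-71873273, plus strand) holds GCGTG at 78 and 2 bases before the start. In the Ak4 promoter (chr4:101419039-101419338, plus strand) the matches lie 74 and 36 bases before the start. A single ACGTG, on the opposite strand, lies 18 bases before the start of Car9 (chr4:43506776-43507075, plus strand). Pgk1 has ACGTG on each strand, at 150 and 131 bases before the start (chrX:106186850-106187149, plus strand). A match of letters is not a measured binding site, and binding was not measured here.

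The cells on PLLA/ZnO without ultrasound had the highest group mean for 19 of the 32 tested genes and the lowest for 0. PLLA -US had the lowest mean for 12 genes and PLLA/ZnO +US for 9. These counts are given without the shares over all tested genes, so they do not set the list apart. Against PLLA, zinc oxide without ultrasound went with higher fitted levels of 29 of the 32 genes, with a median log2 fold change of 0.42 beside -0.01 over all tested genes. Adding ultrasound on PLLA/ZnO went with lower fitted levels of 31 of the 32, Pfkm excepted, with a median of -0.43 beside -0.03 over all tested genes. These 2 comparisons share the 3 PLLA/ZnO -US libraries, as the group compared in the first and as the reference in the second, so they are not independent. With all 18 libraries fitted, no gene passed a Benjamini-Hochberg adjusted p of 0.05 in edgeR's quasi-likelihood test. That held for both comparisons and for any other described here: 0 of 11936 (0%) in each. In bulk RNA, fewer cells of one kind and less RNA per cell cannot be told apart.

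**Figure D1:**
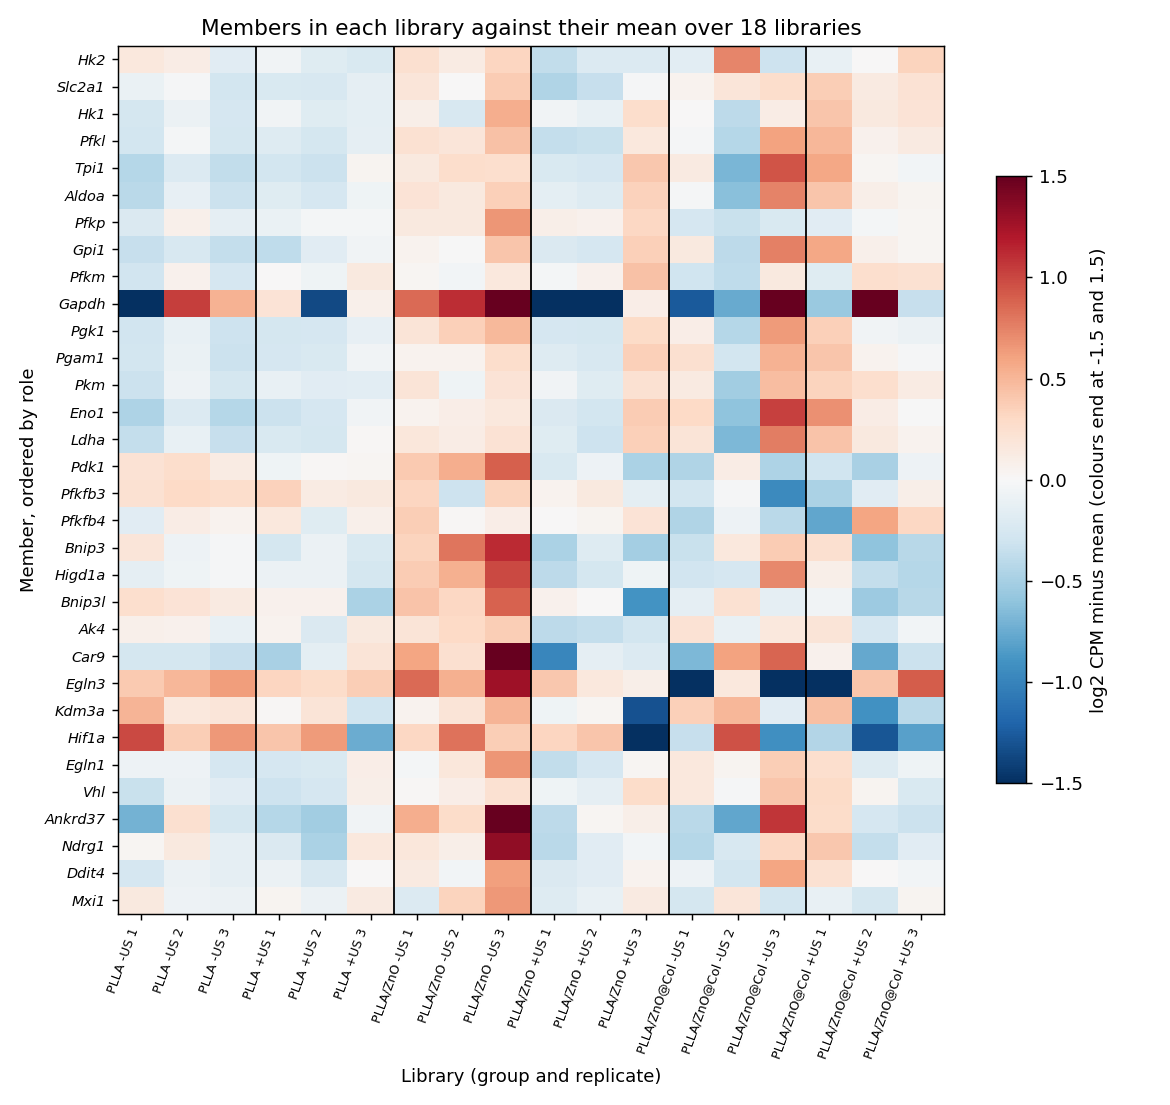
Each row is 1 of the 32 tested genes, ordered by role from glucose entry at the top to other HIF outputs at the bottom, and each column is 1 of the 18 libraries. Colour gives log2 CPM (depth-scaled counts) minus the gene's mean over the libraries, red for higher, and the red block in PLLA/ZnO -US is deepest in replicate 3, which holds the highest value for 16 of the 32 genes. That count is given without the share over all tested genes.

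The zinc oxide comparison held 10 of the 32 genes at an unadjusted p under 0.05, all higher (31.25%), where 1.19% of all tested genes were under it in either direction and 0.896% in the higher direction. The 3 PLLA/ZnO -US values lay above all 3 PLLA -US values for 21 of the 32 genes, beside 7.61% of all tested genes. For ultrasound on PLLA/ZnO, 12 genes (37.5%) had an unadjusted p under 0.05, all lower, beside 3.24% of all tested genes in either direction and 1.14% in the lower direction. All 3 +US values lay below all 3 -US values for 14 of the 32 genes, beside 4.62% of all tested genes. DESeq2 (version 1.42.0), run on the same counts, called 3 of the genes lower with ultrasound on PLLA/ZnO (Bnip3, Pdk1 and Ak4), among 5 calls in the 11919 genes that it tested (0.0419%).

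PLLA/ZnO -US replicate 3 weighed on both comparisons. Without it the zinc oxide median of the 32 genes was 0.24, still with 29 of 32 higher, and 1 gene in place of 10 had an unadjusted p under 0.05. Without PLLA -US replicate 1 or 3 that number was 4, with medians of 0.38. Leaving out PLLA/ZnO@Col -US replicate 2, which is in neither group compared, gave 16. The ultrasound comparison without PLLA/ZnO -US replicate 3 had a median of -0.30, with 29 of 32 lower and 7 genes under 0.05. Without PLLA/ZnO +US replicate 1 it also had 7 genes under 0.05, with a median of -0.34, and without replicate 2 it had 8. The count total of PLLA/ZnO -US replicate 3 was 54986980, within the range of 48307580 to 78039543 over the 18 libraries.

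**Figure D2:**
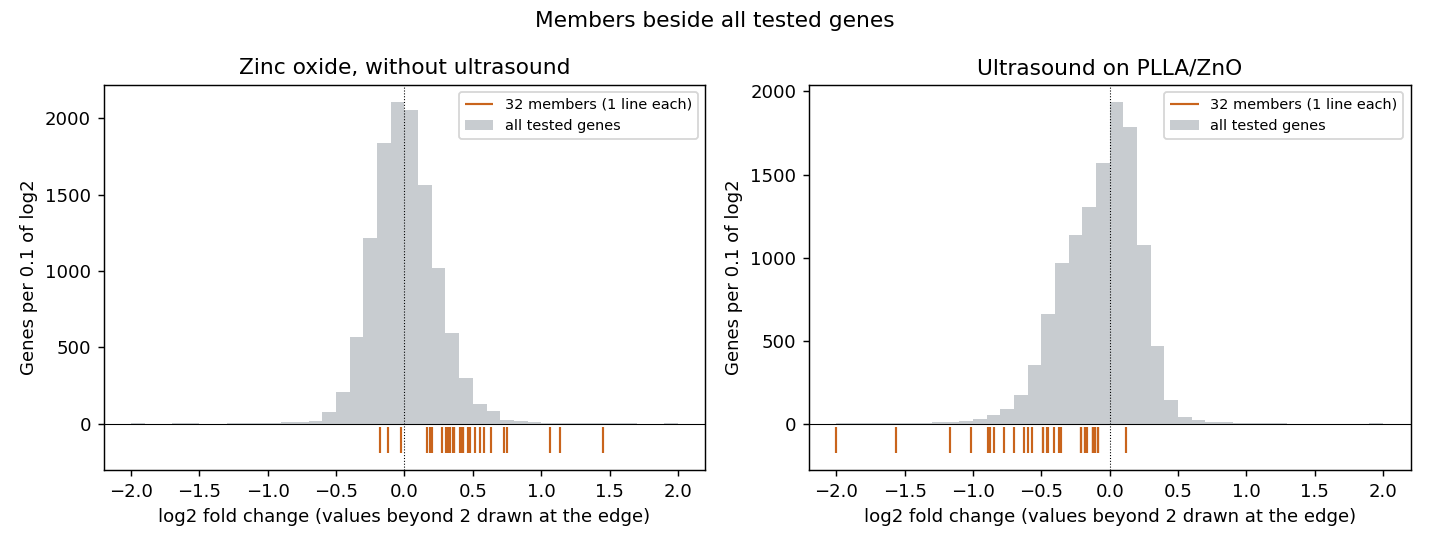
Grey bars count all 11936 tested genes by log2 fold change, and each orange line below the axis is 1 of the 32 genes. The lines lie mostly right of 0 for zinc oxide without ultrasound (29 of 32) and left of 0 for ultrasound on PLLA/ZnO (31 of 32), while the grey bars centre near 0.

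The genes with the smallest p in the test of any difference among the 6 groups follow, with Hif1a and Ldha added whatever their p. Of the 32 genes, 8 (25%) had an unadjusted p under 0.05 in that test, beside 10.8% of all tested genes. The smallest adjusted p of any of them was 0.198, for Pdk1. DESeq2 called 6 of the 32 in its test of any difference (Ak4, Bnip3, Car9, Pdk1, Pfkp and Slc2a1), beside 506 of 11919 genes (4.25%).

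The 4 genes that act at the mitochondrion were the group with the lowest median change among those of 2 or more tested genes for ultrasound on PLLA/ZnO, at -0.83 on the log2 scale, with all 4 at an unadjusted p under 0.05. Bnip3 (ENSMUSG00000078566, chr7:138890836-138909519) encodes an outer-membrane protein that marks mitochondria for removal by autophagy. Its FPKM values were 45.8, 39.1 and 40.2 on PLLA -US, 33.9, 38.0 and 37.8 on PLLA +US, and 50.7, 71.6 and 86.9 on PLLA/ZnO -US. On PLLA/ZnO +US they were 28.8, 35.3 and 28.8, on PLLA/ZnO@Col -US 30.2, 46.0 and 51.3, and on PLLA/ZnO@Col +US 46.0, 26.6 and 29.4. The 3 PLLA/ZnO -US values lay above those of PLLA -US, PLLA +US and PLLA/ZnO +US, with the 2 highest of all 18 in replicates 2 and 3. The group means were 69.7 ± 18.1 (SD, n = 3) without and 31.0 ± 3.73 (SD, n = 3) with ultrasound on PLLA/ZnO. The fitted level was 2.25-fold lower with ultrasound there (log2 fold change -1.17, SE 0.24, unadjusted p 0.000168, adjusted p 0.937 by edgeR). Zinc oxide without ultrasound gave 1.69-fold higher (unadjusted p 0.00578, adjusted p 1), and on PLLA the ultrasound change was -0.22 (SE 0.23).

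Bnip3l (ENSMUSG00000022051, chr14:66985239-67008877), a close relative with the same task, stood at 24.9, 24.7 and 23.3 FPKM on PLLA -US, 22.0, 22.0 and 16.5 on PLLA +US, and 28.0, 26.4 and 38.3 on PLLA/ZnO -US. The other 9 values were 21.7, 21.0 and 11.4 on PLLA/ZnO +US, 18.1, 24.9 and 18.7 on PLLA/ZnO@Col -US, and 19.5, 14.3 and 15.3 on PLLA/ZnO@Col +US. Every PLLA/ZnO -US value exceeded the other 15, and the lowest value was in PLLA/ZnO +US replicate 3. Ultrasound on PLLA/ZnO gave a log2 fold change of -0.77 (SE 0.24, unadjusted p 0.00565, adjusted p 0.937 by edgeR). A processed copy, Bnip3l-ps, also had reads, and how shared reads were counted is not given in the sources used here, so the split between them is uncertain.

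Higd1a (ENSMUSG00000038412, chr9:121848563-121858362) encodes a small inner-membrane protein that works with the respiratory chain. It was at 6.55, 7.07 and 7.20 FPKM on PLLA -US, 6.82, 6.79 and 6.61 on PLLA +US, and 9.35, 10.7 and 14.2 on PLLA/ZnO -US. The remaining groups had 5.43, 6.0 and 7.05 (PLLA/ZnO +US), 5.60, 6.14 and 11.7 (PLLA/ZnO@Col -US) and 7.37, 5.63 and 5.22 (PLLA/ZnO@Col +US). Only PLLA/ZnO@Col -US replicate 3 reached into the range of PLLA/ZnO -US. The fitted changes were 0.73 (SE 0.24, unadjusted p 0.00915) for zinc oxide and -0.89 (SE 0.24, unadjusted p 0.00239) for ultrasound on PLLA/ZnO, with adjusted p of 1 and 0.937 by edgeR.

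Ak4 (ENSMUSG00000028527, chr4:101419277-101466995), an adenylate kinase of the mitochondrial matrix, varied least of the 4. Its values were 6.28, 6.40 and 5.60 FPKM on PLLA -US, 6.26, 5.14 and 7.26 on PLLA +US, and 6.81, 7.48 and 7.66 on PLLA/ZnO -US. They were 4.49, 4.66 and 5.02 on PLLA/ZnO +US, 6.55, 5.65 and 6.52 on PLLA/ZnO@Col -US, and 6.56, 5.00 and 5.69 on PLLA/ZnO@Col +US. The 3 PLLA/ZnO +US libraries lay below the PLLA libraries of both kinds and below those of PLLA/ZnO -US, and they overlapped PLLA/ZnO@Col +US. Ultrasound on PLLA/ZnO gave 1.55-fold lower (log2 -0.63, SE 0.14, unadjusted p 0.000466, adjusted p 0.937 by edgeR). Without PLLA/ZnO -US replicate 3 that change was -0.59.

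Pdk1 (ENSMUSG00000006494, chr2:71873224-71903858) encodes the kinase that shuts off pyruvate dehydrogenase and so keeps pyruvate out of the mitochondria. FPKM values were 11.8, 12.4 and 11.2 on PLLA -US, 9.72, 10.3 and 11.3 on PLLA +US, and 13.3, 15.1 and 18.6 on PLLA/ZnO -US. Further values were 8.55, 9.61 and 7.43 on PLLA/ZnO +US, 6.99, 11.1 and 7.19 on PLLA/ZnO@Col -US, and 7.89, 7.22 and 9.37 on PLLA/ZnO@Col +US. The 3 PLLA/ZnO -US values were the highest of the 18, and PLLA/ZnO +US lay below both PLLA groups. The group means were 15.7 ± 2.72 (SD, n = 3) and 8.53 ± 1.09 (SD, n = 3) without and with ultrasound on PLLA/ZnO. The change there was -0.88 (SE 0.18, unadjusted p 0.000155, adjusted p 0.937 by edgeR). Collagen without ultrasound gave a change of about the same size, -0.87 (SE 0.18, unadjusted p 0.000169, adjusted p 0.0719), against the same PLLA/ZnO -US libraries.

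The other flux regulators were Pfkfb3 and Pfkfb4, which set the level of fructose 2,6-bisphosphate, the activator of phosphofructokinase. Pfkfb3 ranged from 0.856 to 2.19 FPKM and Pfkfb4 from 0.773 to 2.09. Neither passed an unadjusted p of 0.05 for ultrasound on PLLA/ZnO, with changes of -0.12 and -0.08.

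Car9 (ENSMUSG00000028463, chr4:43506966-43513729), the cell-surface carbonic anhydrase that handles acid made by glycolysis, had the widest fold range of the genes named in full, 8.02-fold from lowest to highest. The values were 4.36, 4.48 and 4.15 FPKM on PLLA -US, 3.77, 4.72 and 6.60 on PLLA +US, and 7.90, 6.34 and 21.0 on PLLA/ZnO -US. On PLLA/ZnO +US they were 2.62, 4.77 and 4.61, on PLLA/ZnO@Col -US 3.09, 8.08 and 9.41, and on PLLA/ZnO@Col +US 5.28, 3.05 and 4.08. The 3 PLLA/ZnO -US values lay above all PLLA -US and all PLLA/ZnO +US values, and replicate 3 was 21.0, more than the next highest library at 9.41. The fitted changes were 1.46 (SE 0.44, unadjusted p 0.0049, adjusted p 1 by edgeR) for zinc oxide and -1.56 (SE 0.44, unadjusted p 0.00305, adjusted p 0.937) for ultrasound on PLLA/ZnO. Without that library they were 0.72 and -0.83.

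**Figure D3:**
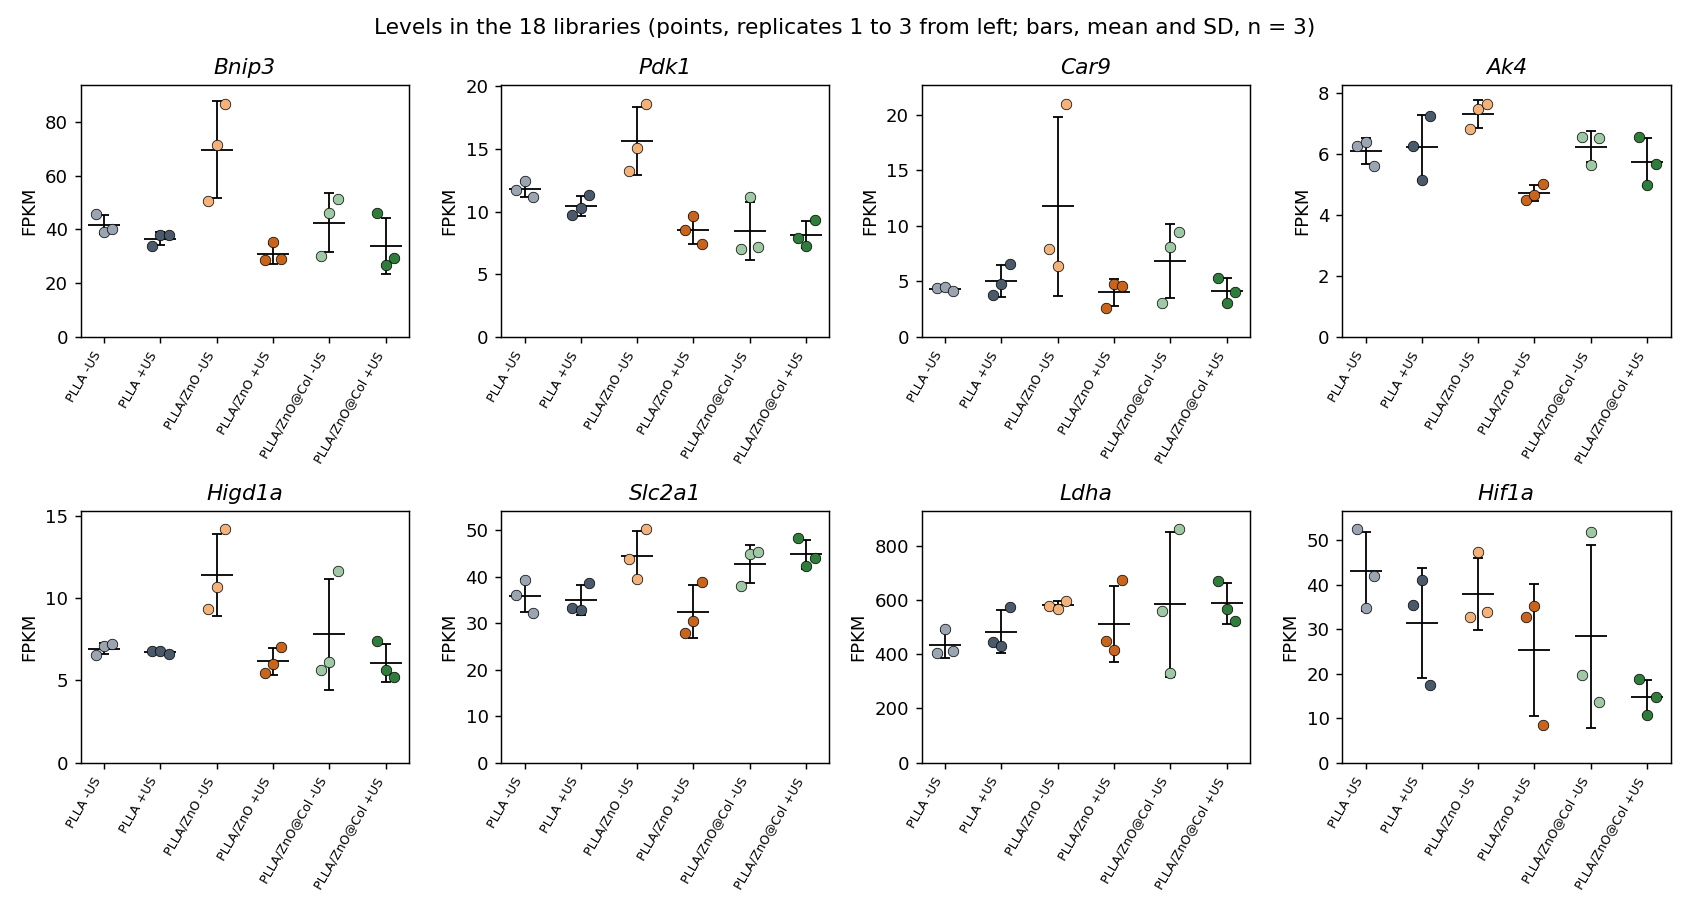
FPKM of 8 genes in the 18 libraries, with 1 point per library and the mean and SD of the 3 libraries of each group. In the Bnip3, Pdk1, Higd1a and Car9 panels the PLLA/ZnO -US points lie above all points of PLLA -US and PLLA/ZnO +US, while the Ldha points of PLLA/ZnO -US (567 to 595) lie inside the PLLA/ZnO +US range (416 to 672).

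Glucose enters through transporters and is trapped by hexokinase. Slc2a1 (ENSMUSG00000028645, chr4:119108711-119137983), the glucose transporter GLUT1, had 36.1, 39.4 and 32.2 FPKM on PLLA -US, 33.3, 32.9 and 38.7 on PLLA +US, and 43.8, 39.5 and 50.2 on PLLA/ZnO -US. Values of 28.0, 30.6 and 38.9 on PLLA/ZnO +US, 38.1, 44.8 and 45.3 on PLLA/ZnO@Col -US and 48.3, 42.2 and 44.0 on PLLA/ZnO@Col +US completed the set. PLLA/ZnO +US lay below PLLA/ZnO -US and below PLLA/ZnO@Col +US without overlap. The ultrasound change on PLLA/ZnO was -0.46 (SE 0.14, unadjusted p 0.00426, adjusted p 0.937 by edgeR), and collagen with ultrasound gave 0.50 (SE 0.14, unadjusted p 0.00216, adjusted p 0.403).

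Hk2, the hexokinase isoform known for induction by HIF, was at 17.1 ± 0.914 FPKM (SD, n = 3) on PLLA/ZnO -US and 12.3 ± 0.914 (SD, n = 3) on PLLA/ZnO +US, and those 2 groups did not overlap. Its change was -0.49 (SE 0.21, unadjusted p 0.0385, adjusted p 0.937 by edgeR). Hk1, the housekeeping isoform, had -0.12 there, and its groups overlapped. The other glucose transporter gene of the list, Slc2a3, was not tested and never exceeded 0.225 FPKM.

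The 11 tested enzymes from Gpi1 to Pkm and the lactate enzyme Ldha include the most abundant genes of the list per transcript length. Aldoa, Pgk1, Pgam1, Pkm and Ldha ranged from 320.4 to 878 FPKM over the libraries. Zinc oxide without ultrasound went with higher fitted levels of all 6 tested upper enzymes (median 0.47) and all 5 lower ones (median 0.47), of which 3 had an unadjusted p under 0.05: Pfkp, Pfkl and Pgk1. For ultrasound on PLLA/ZnO the medians were smaller, -0.20 and -0.12, and 1 of these 11, Gapdh, had an unadjusted p under 0.05.

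Ldha (ENSMUSG00000063229, chr7:46841475-46855627), which makes lactate from pyruvate, stood at 403, 491 and 411 FPKM on PLLA -US, 445, 430.1 and 573 on PLLA +US, and 577, 567 and 595 on PLLA/ZnO -US. PLLA/ZnO +US had 448, 416 and 672, PLLA/ZnO@Col -US 559, 329.7 and 859.7, and PLLA/ZnO@Col +US 670.4, 567 and 522. The PLLA/ZnO -US libraries were the closest together and lay above all 3 PLLA -US libraries, while PLLA/ZnO@Col -US held both the lowest and the highest of the 18 values. The fitted changes were 0.43 (SE 0.27, unadjusted p 0.131, adjusted p 1 by edgeR) for zinc oxide and -0.18 (SE 0.27, unadjusted p 0.505, adjusted p 0.937) for ultrasound on PLLA/ZnO.

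PLLA/ZnO +US replicate 3 was read apart for the 12 enzymes just described, Ldha included. It lay above the lowest PLLA/ZnO -US library for 10 of the 12 (83.3%) and above all 3 for 7 (58.3%). Over all tested genes these shares were 60.3% and 38.3%. Among the other 20 tested genes of the list it did so for 7 (35%) and 1 (5%). Replicates 1 and 2 of PLLA/ZnO +US both lay below the lowest PLLA/ZnO -US library for 11 of the 12 enzymes and for 16 of the 20 others, beside 10.4% of all tested genes. These counts are a description with no test. Replicate 3 also stood apart in its Y-linked transcripts, as given with Hif1a, and the part of this in the enzyme values was not tested. Leaving that library out gave lower fitted levels with ultrasound for 32 of 32 genes and a median of -0.47.

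Phosphofructokinase, the committed step of glycolysis, is made of Pfkl, Pfkm and Pfkp subunits. Pfkp (ENSMUSG00000021196, chr13:6579768-6648777) was at 7.30, 9.16 and 7.84 FPKM on PLLA -US, 8.0, 8.33 and 9.17 on PLLA +US, and 9.34, 9.58 and 13.3 on PLLA/ZnO -US. It was at 8.90, 8.88 and 10.8 on PLLA/ZnO +US, 6.76, 6.84 and 7.08 on PLLA/ZnO@Col -US, and 7.28, 8.32 and 8.49 on PLLA/ZnO@Col +US. The PLLA/ZnO@Col -US libraries were the 3 lowest of the 18. Its change was 0.42 (SE 0.14, unadjusted p 0.00902, adjusted p 1 by edgeR) for zinc oxide without ultrasound and -0.61 (SE 0.14, unadjusted p 0.000607, adjusted p 0.0963) for collagen without ultrasound. Without PLLA/ZnO -US replicate 3 the first of these was 0.23 and the second -0.41. Pfkl, the liver-type subunit, was at 38.4 ± 4.36 FPKM (SD, n = 3) on PLLA -US, 52.7 ± 4.58 on PLLA/ZnO -US and 38.7 ± 8.82 on PLLA/ZnO +US. Pfkm, the muscle-type subunit, was the single gene of the list with a higher fitted level after ultrasound on PLLA/ZnO, at 0.12.

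Pgk1, the first enzyme of glycolysis to make ATP, had 496 ± 43.6 FPKM (SD, n = 3) on PLLA -US and 737 ± 74.6 (SD, n = 3) on PLLA/ZnO -US, with no overlap. On PLLA/ZnO +US it had 557 ± 138 (SD, n = 3). Its zinc oxide change was 0.59 (SE 0.23, unadjusted p 0.021, adjusted p 1 by edgeR).

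The remaining enzymes had group means in the order PLLA -US, PLLA/ZnO +US, PLLA/ZnO -US from low to high, and none reached an unadjusted p of 0.05 in either comparison. Tpi1, which interconverts the triose phosphates, was at 308 ± 28.6, 387 ± 112 and 447 ± 23.8 FPKM in these groups (SD, n = 3). Aldoa, the aldolase that cleaves fructose 1,6-bisphosphate, was at 404 ± 46.6, 495 ± 117 and 573 ± 36.7 FPKM (SD, n = 3). Gpi1, the glucose 6-phosphate isomerase, was at 85.7 ± 4.78, 105 ± 28.0 and 118 ± 18.3 FPKM (SD, n = 3). In these 3 genes, and in Eno1, Pgam1 and Pkm below, the SD was the largest of these groups on PLLA/ZnO +US. Replicate 3 was the highest library of that group for each of them. Eno1, the enolase, was at 208 ± 23.7, 265 ± 75.4 and 285 ± 10.1 FPKM (SD, n = 3). Pgam1, a phosphoglycerate mutase, was at 468 ± 44.8, 545 ± 140.4 and 593 ± 46.2 FPKM (SD, n = 3). Pkm, the pyruvate kinase that ends the pathway, was at 503 ± 52.6, 583 ± 95.5 and 626 ± 54.8 FPKM (SD, n = 3). For these 6 enzymes PLLA/ZnO@Col -US held the highest library of the 18 in replicate 3 and, except for Gpi1 and Pgam1, the lowest in replicate 2. The SDs of that group ran up to 244 FPKM, for Aldoa, and its PLLA/ZnO@Col +US counterpart had means of 541 ± 73.1 FPKM for Aldoa and 318 ± 80.6 for Eno1 (SD, n = 3).

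Gapdh, often used as a reference gene, varied most of the 11 enzymes. Its lowest, median and highest values over the 18 libraries were 15.1, 56.4 and 202 FPKM. PLLA/ZnO -US had 90.5, 110.4 and 202, PLLA/ZnO +US had 16.5, 15.1 and 54.7, and the PLLA -US libraries spread from 16.9 to 106. The fitted ultrasound change on PLLA/ZnO was -2.23, with an SE of 0.87 (unadjusted p 0.0213, adjusted p 0.937 by edgeR). Depth-scaled counts of Gapdh differed 13.5-fold between the extreme libraries. The processed copies Gapdh-ps15 and Gapdh-ps16 varied 2.85-fold and 2.90-fold, and Pgk1 varied 1.97-fold. Reads shared with such copies may have been split or dropped, the rule is not given in the sources used here, and the level of Gapdh is therefore uncertain. Eno1, Pgam1, Pgk1, Ldha and Tpi1 also have copies with reads in the table. A second gene model named Aldoa, at 1.95 to 4.55 FPKM, was fitted but is not counted among the 32.

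**Figure D4:**
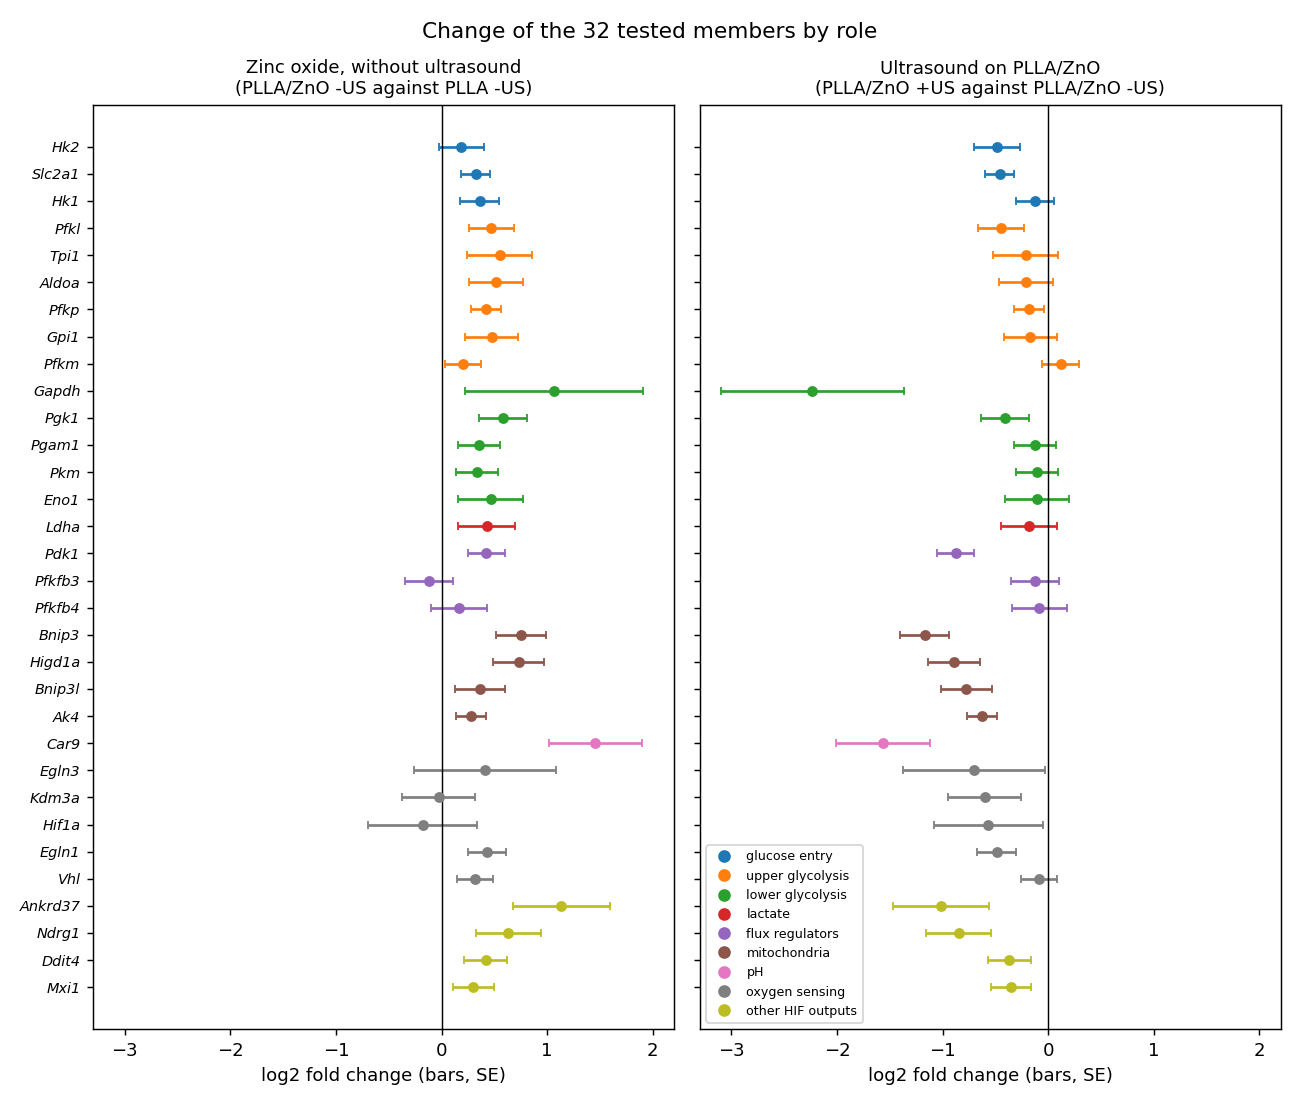
Log2 fold change of each of the 32 genes with its SE, coloured by role, for zinc oxide without ultrasound (left) and ultrasound on PLLA/ZnO (right) on the same horizontal scale. Most points lie right of 0 on the left (29 of 32) and left of 0 on the right (31 of 32), and Bnip3 (-1.17), Car9 (-1.56) and Gapdh (-2.23) lie farther left than the enzymes Eno1 and Pkm.

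Hif1a (ENSMUSG00000021109, chr12:73901375-73947530) encodes the oxygen-labile subunit itself. Its values were 52.5, 34.8 and 41.9 FPKM on PLLA -US, 35.5, 41.2 and 17.4 on PLLA +US, and 32.7, 47.3 and 33.8 on PLLA/ZnO -US. PLLA/ZnO +US had 32.6, 35.2 and 8.36, PLLA/ZnO@Col -US had 19.6, 51.9 and 13.6, and PLLA/ZnO@Col +US had 18.7, 10.8 and 14.7. Values differed up to 6.28-fold between libraries, mostly within groups. The zinc oxide change was -0.18 (SE 0.51, unadjusted p 0.735, adjusted p 1 by edgeR), and ultrasound on PLLA/ZnO gave -0.57 (SE 0.52, unadjusted p 0.291, adjusted p 0.937). The group means of 43.0 ± 8.87 FPKM on PLLA -US and 37.9 ± 8.15 on PLLA/ZnO -US (SD, n = 3) differed by less than the spread between replicates.

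The libraries fell apart by their Y-linked transcripts, which are summed here over Ddx3y, Eif2s3y, Kdm5d and Uty. The sum was 0.185 to 0.386 FPKM in 3 libraries (PLLA/ZnO@Col -US replicates 1 and 3, PLLA/ZnO@Col +US replicate 1). It was 2.55 to 6.10 in 4 others (PLLA +US replicate 3, PLLA/ZnO +US replicate 3, PLLA/ZnO@Col +US replicates 2 and 3) and 10.5 to 21.8 in the remaining 11. Mitochondrial transcripts took 1.57% to 2.27% of counts in those 7 libraries and 2.31% to 4.54% in the 11. Hif1a was at 8.36 to 19.6 FPKM in the 7 and at 32.6 to 52.5 in the 11, and Bnip3l was at 11.4 to 19.5 and 21.0 to 38.3, both without overlap. The other 30 tested genes of the list overlapped between the 7 and the 11, and 9.68% of all tested genes were lower in the 7 without overlap. Both groups of the zinc oxide comparison without ultrasound belong wholly to the 11. Without the 4 intermediate libraries ultrasound on PLLA/ZnO gave a median of -0.47 and 32 of 32 genes lower, and without the 3 lowest it gave -0.40 and 31 of 32. Of these 7 libraries only PLLA/ZnO +US replicate 3 is in that comparison, and leaving it out alone is given above. The omission of the 3 lowest removed no compared library, so it cannot show the part of the Y-linked difference there. Among the PLLA/ZnO@Col libraries 1 of 6 belongs to the 11, so collagen and this difference between libraries cannot be told apart.

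**Figure D5:**
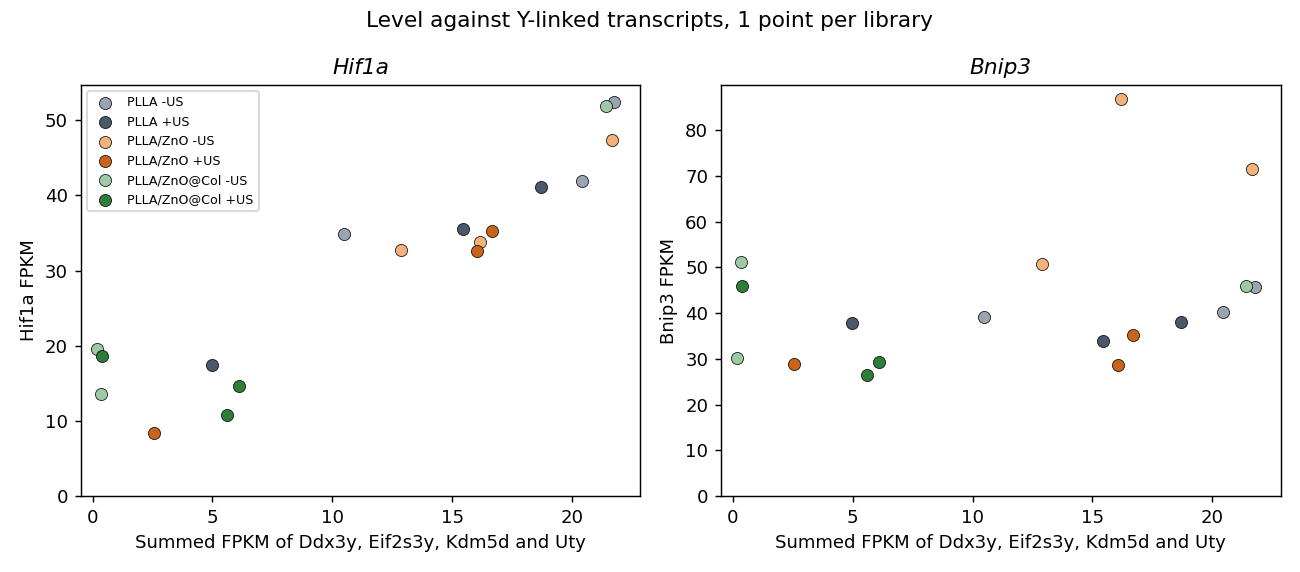
FPKM of Hif1a (left) and Bnip3 (right) against the summed FPKM of the 4 Y-linked genes, 1 point per library, coloured by group. Hif1a is at most 19.6 FPKM in the 7 libraries with sums up to 6.10 and at least 32.6 in the other 11, while Bnip3 overlaps between these sets and is highest in PLLA/ZnO -US.

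The oxygen sensors and their partners had a median change of -0.57 for ultrasound on PLLA/ZnO over 5 tested genes. Egln1, the main prolyl hydroxylase, was at 26.9 ± 6.66 FPKM (SD, n = 3) on PLLA/ZnO -US and 19.2 ± 3.04 (SD, n = 3) on PLLA/ZnO +US. Its changes were 0.43 (SE 0.18, unadjusted p 0.0322) for zinc oxide and -0.49 (SE 0.18, unadjusted p 0.0174) for ultrasound on PLLA/ZnO, and without PLLA/ZnO -US replicate 3 they were 0.21 and -0.26. Egln3, itself a HIF target, was low at 0.0827 to 1.73 FPKM, with its 3 lowest values in the 3 libraries with the fewest Y-linked transcripts. Kdm3a, a histone demethylase, had -0.60 (SE 0.34) for ultrasound on PLLA/ZnO, and Vhl had -0.08 (SE 0.17). The second alpha subunit, Epas1, was not tested.

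Among the remaining HIF outputs, all 4 tested genes (Ankrd37, Ndrg1, Ddit4, Mxi1) had higher fitted levels with zinc oxide and lower ones with ultrasound on PLLA/ZnO, with medians of 0.52 and -0.61. Ankrd37, an ankyrin-repeat gene, was at 1.21 ± 0.431 FPKM (SD, n = 3) on PLLA -US, 2.66 ± 1.38 on PLLA/ZnO -US and 1.31 ± 0.238 on PLLA/ZnO +US. Ndrg1, a stress-responsive gene, was at 21.6 ± 11.1 on PLLA/ZnO -US, where its single values were 15.5, 15.0 and 34.4, and at 12.1 ± 1.68 on PLLA/ZnO +US. The ultrasound changes of Ankrd37 and Ndrg1 on PLLA/ZnO were -1.02 (unadjusted p 0.0408) and -0.85 (unadjusted p 0.0145), and without PLLA/ZnO -US replicate 3 they were -0.50 and -0.33. Ddit4, an inhibitor of mTORC1 signalling, and Mxi1, a repressor that opposes Myc, had -0.37 and -0.35 without passing an unadjusted p of 0.05.

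Whether ultrasound acted differently on the membranes was tested as a difference of differences. The comparisons with PLLA and with PLLA/ZnO@Col both contain the ultrasound change on PLLA/ZnO, with opposite sign, so they are not independent. Between PLLA/ZnO and PLLA the median over the 32 genes was -0.38, and 32 of 32 lay below 0. An unadjusted p under 0.05 was reached by 5 of them (Ak4, Bnip3, Car9, Pdk1 and Higd1a), beside 0.385% of all tested genes, and no adjusted p passed (each 1 by edgeR). The difference for Bnip3 was -0.95 (SE 0.33, unadjusted p 0.0117). Without PLLA/ZnO -US replicate 3 the median was -0.25, and 2 genes were under 0.05. Between PLLA/ZnO@Col and PLLA/ZnO the median was 0.38, with 30 of 32 above 0 and 5 genes under 0.05 (Pdk1, Slc2a1, Bnip3, Ak4 and Ndrg1), beside 2.2% of all tested genes. Without PLLA/ZnO -US replicate 3 that median was 0.22, with 3 genes under 0.05, and leaving out single libraries gave 2 such genes (PLLA/ZnO@Col +US replicate 3) to 11 (PLLA/ZnO@Col -US replicate 3).

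On PLLA alone, ultrasound went with higher fitted levels of 17 genes and lower levels of 15, with a median of 0.02 and 0 genes at an unadjusted p under 0.05, beside 0.436% of all tested genes. The highest member change was 0.19 and the lowest was -0.56, for Gapdh. On PLLA/ZnO@Col the split was 14 and 18, the median was -0.04, and again 0 genes were under 0.05, beside 8.18% of all tested genes. In that comparison single libraries set the sign of the median, which ran from -0.24 without PLLA/ZnO@Col -US replicate 2 to 0.26 without replicate 3.

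With ultrasound on both membranes, PLLA/ZnO and PLLA differed with a median of -0.02 and 16 genes on each side, and 1 gene, Ak4, had an unadjusted p under 0.05 (change -0.35), beside 1.27% of all tested genes. PLLA/ZnO +US set against PLLA -US gave the same 16 and 16, a median of -0.01 and 2 lower genes under 0.05, beside 4.13% of all tested genes. These were Pdk1 (-0.45) and Ak4 (-0.35). In both of these comparisons all 6 tested upper enzymes had fitted changes above 0 and all 4 mitochondrial genes below 0. Those comparisons share the PLLA/ZnO +US libraries. Among these, replicate 3 was the highest for each of the 6 upper enzymes, as with Tpi1 at 323, 321 and 515 FPKM.

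Collagen without ultrasound (PLLA/ZnO@Col -US against PLLA/ZnO -US) went with lower fitted levels of 26 of 32 genes and a median of -0.20, beside 0.04 over all tested genes. An unadjusted p under 0.05 was reached by 7 genes, all lower (21.9%), beside 12.9% of all tested genes. They were Pdk1, Pfkp, Bnip3, Egln3, Ndrg1, Bnip3l and Pfkfb3. The smallest adjusted p was 0.0719, and DESeq2 called 2 of them, Pdk1 and Pfkp, beside 407 of 11919 genes (3.41%). Without PLLA/ZnO -US replicate 3 the median was -0.10 and 3 genes were under 0.05, beside 10.5% of all tested genes. The median was -0.12 without PLLA/ZnO@Col -US replicate 2 and -0.40 without replicate 3, and without replicate 1 it was -0.18 with 2 genes under 0.05. Without the 3 libraries with the fewest Y-linked transcripts, 2 of which are in this comparison, it was -0.56. Collagen with ultrasound gave a median of 0.16, 24 of 32 genes higher and 2 under 0.05 (Slc2a1 and Ak4, both higher), beside 9.43% of all tested genes. Single libraries moved that median from 0.02, with 17 of 32 higher, without PLLA/ZnO@Col +US replicate 1 to 0.28 without PLLA/ZnO +US replicate 3. It was 0.09 and 0.10 without PLLA/ZnO +US replicates 1 and 2.

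Other HIF targets outside the list were examined from a second list of 35 genes in the table, of which 30 were tested. They were read in the same libraries, PLLA/ZnO -US replicate 3 included, so they are not an independent check. This list too was chosen with earlier results of these data known. With zinc oxide 27 of the 30 had higher fitted levels (median 0.23) and 7 had an unadjusted p under 0.05, beside 1.19% of all tested genes. With ultrasound on PLLA/ZnO 24 of 30 were lower (median -0.37) and 10 had an unadjusted p under 0.05, beside 3.24%. P4ha2, a collagen prolyl hydroxylase subunit, was at 27.2 ± 6.65 FPKM (SD, n = 3) on PLLA/ZnO -US and 16.2 ± 2.92 (SD, n = 3) on PLLA/ZnO +US, a change of -0.75 (SE 0.18). Fam162a, a mitochondrial protein gene, was at 138 ± 23.3 and 75.0 ± 4.50 FPKM in these groups (SD, n = 3), a change of -0.87. Ccng2, a cyclin known for slowing division, had -0.88 (SE 0.26). Hilpda, which blocks fat breakdown in lipid droplets, was at 17.1 ± 3.24 on PLLA/ZnO -US and 11.2 ± 0.898 on PLLA -US (SD, n = 3), a change of 0.62. None of these passed an adjusted p of 0.05. With collagen and without ultrasound 21 of the 30 were lower and 10 had an unadjusted p under 0.05, beside 12.9%. The 3 with the smallest p were Plin2 and Cited2, both higher (0.61 and 0.49), and P4ha2, lower (-0.54). Of 9 tested components of the HIF machinery (partner subunit, Vhl complex and coactivators), 6 were lower with zinc oxide and 6 with ultrasound on PLLA/ZnO, with medians of -0.09 and -0.04 and 0 at an unadjusted p under 0.05.

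The markers of other cell types were checked in all libraries. Of 8 osteoblast markers 4 were tested, and their lineage sum was 2142 to 4386 FPKM, mostly Spp1, Col1a1 and Col1a2, with Runx2 at 6.22 to 9.54. Alpl was at most 0.178, Bglap at most 0.626 and Ibsp at most 0.0286 FPKM. The macrophage sum ran from 7.12 to 8.61 FPKM on PLLA -US, 1.57 to 6.97 on PLLA +US, 1.01 to 7.72 on PLLA/ZnO -US and 0.51 to 7.31 on PLLA/ZnO +US. It was 1.5 to 9.0 on PLLA/ZnO@Col -US and 0.743 to 9.32 on PLLA/ZnO@Col +US. Of its 5 markers, Cd68 ran from 0.381 to 5.97 FPKM, Csf1r from 0.0530 to 1.68 and Itgam from 0 to 1.64. Ptprc and Adgre1 stayed under 0.1 throughout. Endothelial and epithelial sums stayed at most 0.256 and 0.231 FPKM, and the adipocyte sum at most 0.814. The cartilage sum of 13.5 to 26.7 FPKM was nearly all Sox9, with Col2a1 at most 0.900 and Acan at most 0.0181. The erythroid sum was at most 0.241 FPKM, except in PLLA +US replicate 3 at 13.4. The part of these markers in the results above was not tested.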

How the data were processed

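Per the labels, poly(A) RNA of MC3T3-E1 cells was made into libraries by standard Illumina protocols. The submitters' processing notes name cutadapt 1.9, FastQC and the build GRCm38. Which aligner and counter were used, and how they treated strand and shared reads, is not given in the sources used here. Raw counts and FPKM values of each gene stand side by side in the authors' deposited table, per the file headers. Libraries held 48307580 to 78039543 counts, and for the genes described the replicate spread was the larger source of error.

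Genes at 1 FPKM or more in at least 3 libraries were tested on the deposited counts by edgeR 4.0.16 (R 4.3.3, TMM scaling, quasi-likelihood F-test, two-sided). All 18 libraries were fitted jointly by group, leaving 12 residual degrees of freedom. Calls were made at a Benjamini-Hochberg adjusted p under 0.05 over the 11936 tested genes of a contrast, and the biological coefficient of variation was 0.28. Unadjusted p-values and group overlaps serve as description. The test was also run on simulated counts with less spread than these data (common dispersion 0.0782 here), so that run does not show its power here. FPKM values are printed as deposited.

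The members and gene lists were chosen with earlier results of these data known. All libraries are named by group and replicate number. Values in all 18 libraries are given for the 8 tested genes with the smallest p over the 6 groups (Slc2a1, which the rule also names by itself, among them) and for Hif1a and Ldha. Genes of other lists are named where an unadjusted p was under 0.01, at most 3 per list and contrast. A gene that this rule would name is not reported here. Alternatives were DESeq2 1.42.0, other scalings and filters, limma 3.58.1 on log2(FPKM + 1) and log2(FPKM + 0.1), a replicate block, the compared libraries alone, and leaving out libraries. Promoters were read from RefSeq (GRCm38.p6), and the transcribed ends of 30 of 33 were found in GENCODE transcripts of GRCm38. Gene coordinates are those of the table. No column of counts or FPKM in the table was left unused.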

Additional observations from a re-analysis of the deposited data

Results flagged for a closer look

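The values here come from PLLA +US replicate 3 and from genes that stayed under the expression filter, and they were picked out because that library stood above all control libraries. Aldoc, the brain-type aldolase, was at 3.31 FPKM there (938 counts), while the highest PLLA -US library and the highest of the other 17 libraries were both at 0.376. Epas1, the HIF-2 alpha subunit, was at 0.268 FPKM there (131 counts), while all PLLA -US libraries were listed at 0 and the highest other library was at 0.0108. The same library held the only erythroid marker sum above 0.241 FPKM, at 13.4, and a Y-linked sum of 4.97. Whether these values go together was not tested.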

How the results depend on the processing

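In the reported edgeR fit of all 18 libraries no gene of the list was called in any comparison. Some edgeR fits with libraries left out did call genes of the list, as given below. DESeq2 called 3 for ultrasound on PLLA/ZnO (Bnip3, Pdk1 and Ak4, of 5 genes called in all, with adjusted p of 0.0211, 0.0211 and 0.033), while over the 30 alternatives the adjusted p of each ran from its DESeq2 value to 1. It called 2 for collagen without ultrasound (Pdk1 and Pfkp), beside 407 of 11919 genes (3.41%), and 6 for any difference among groups, beside 506 (4.25%). Leaving out 1 library at a time gave 0 to 3 called genes for collagen without ultrasound: Egln3, Pdk1 and Pfkp without PLLA/ZnO@Col -US replicate 2, where 1039 of 11936 genes (8.7%) were called. Pdk1 alone was called without PLLA/ZnO +US replicate 3 or PLLA/ZnO@Col +US replicate 1, beside 41 and 95 genes in all. For any difference it gave 0 to 1 (Pdk1 among 211 genes, without PLLA/ZnO@Col -US replicate 2). The median change ran from -0.24 to 0.26 for ultrasound on PLLA/ZnO@Col, and from -0.40 to -0.10 for collagen without ultrasound. Over the same omissions it ran from -0.47 to -0.30 for ultrasound on PLLA/ZnO and from 0.24 to 0.47 for zinc oxide without ultrasound. Further sets of libraries were left out by a choice made after seeing the data. Without the 3 libraries with the fewest Y-linked reads the median was 0.27 for ultrasound on PLLA/ZnO@Col and -0.56 for collagen without ultrasound, and 1 gene of the list (Bnip3), among 25 in all, was called for any difference. Without the 4 intermediate libraries the median for collagen with ultrasound was 0.49. The cause of these moves was not tested.

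Over all alternatives, those just given included, 321 of 329 counts of called genes and 234 of 240 medians were graded as unmoved. The reported count of called genes was 0 in every comparison. The grade for medians was wide: it kept the zinc oxide median of 0.24 without PLLA/ZnO -US replicate 3, beside 0.42 reported. The 1316 changes of single genes covered only genes already at an unadjusted p under 0.05 in the reported fit. Of these, 0 reversed sign, which that choice favours, and 10 passed the threshold where the reported fit did not. The replicate numbers are not said to pair the libraries, and of 45 same-numbered pairs 21 had deviations correlated above 0.1, with a range from -0.51 to 0.73. A fit with the replicate number as a block called 0 genes of the list in every comparison, with medians of -0.44 for ultrasound on PLLA/ZnO and 0.41 for zinc oxide without ultrasound. With no filter on low values 37 genes were fitted, and the median for ultrasound on PLLA/ZnO was -0.28.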

Other observations

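Genes that use pyruvate in the mitochondria were counted beside the glycolysis and HIF genes. Of 19 tested genes of pyruvate, lactate and citrate cycle metabolism, 14 had higher fitted levels with ultrasound on PLLA/ZnO (median 0.06) and 15 with zinc oxide without ultrasound (median 0.09). An unadjusted p under 0.05 was reached by 3 and by 0 of them, beside 3.24% and 1.19% of all tested genes. With ultrasound on PLLA/ZnO@Col, Pcx, which makes oxaloacetate from pyruvate, was at 38.0 ± 1.58 FPKM against 24.7 ± 5.90 without (SD, n = 3), a log2 change of 0.62 (SE 0.17). Ogdh, a subunit of the oxoglutarate dehydrogenase complex, was at 53.3 ± 5.13 and 40.3 ± 3.85 FPKM (SD, n = 3), a change of 0.40. With collagen and without ultrasound, Sdha, a subunit of succinate dehydrogenase, was at 38.3 ± 5.99 FPKM against 54.8 ± 1.47 on PLLA/ZnO (SD, n = 3), a change of -0.49. None of these passed an adjusted p of 0.05 in edgeR.

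Of 15 tested genes of other glycolysis isoforms and the pentose phosphate pathway, 7 were higher and 8 lower with ultrasound on PLLA/ZnO (median -0.04), and 12 were higher with zinc oxide without ultrasound (median 0.15). Adpgk, an ADP-dependent glucokinase, was at 3.86 ± 0.290 FPKM with collagen and ultrasound and at 3.11 ± 0.184 on PLLA/ZnO +US (SD, n = 3). Its change was 0.35 (SE 0.12, unadjusted p 0.00971, adjusted p 0.422 by edgeR).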
